A study of Caenorhabditis elegans with 2 samples.

Results

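The ttr- genes of *Caenorhabditis elegans*, which encode transthyretin-like secreted proteins, were examined in heat-stressed worms with and without the p38 kinase PMK-1. Members were all genes whose WormBase symbol starts with ttr- and whose sequence name was listed in at least 1 of the 2 libraries. These were 41 of 58 annotated ttr- genes, among 8731 genes listed in all, and the other 17 were not analysed here. The rule uses names and the listing of reads, not a difference between the libraries, but the group was taken up with earlier results of these data known. One library came from wild-type N2 Bristol worms and 1 from the KU25 strain, a pmk-1 deletion mutant with the allele pmk-1(km25) on chromosome IV. Both were whole-worm lysates of young adults grown at 20 °C with *Escherichia coli* OP50 as food and then held for 5 h at 35 °C on plates in sealed bags in a water bath. All material was therefore heated, and KU25 is 1 strain with 1 deletion allele.

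Transthyretin-like proteins form a large protein family of nematodes, related in sequence to vertebrate transthyretin, the blood carrier of thyroid hormone. Most carry a signal peptide and are small secreted proteins, and members are common in the material that parasitic nematodes release into their hosts. For a few, a role is known in *C. elegans*. TTR-52 binds phosphatidylserine on dying cells and bridges them to the engulfment receptor CED-1, and TTR-33 protects dopamine neurons from oxidative damage. For most members no function is established. ttr-52 was not analysed here.

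Depth was 5.78 M counted reads for the wild-type library and 5.23 M for the mutant one, so that 1 read was worth 0.173 and 0.191 CPM, a count scaled to a library of 1000000 reads. With 1 library per genotype there is no replicate error and no test of genotype. Ratios divide the mutant CPM by the wild-type CPM and carry a 95% interval from the exact conditional binomial distribution, for counting error between these libraries only. A gene was called when it had at least 50 reads in a library, a ratio of at least 2 and an interval that excluded 1. Genes absent from 1 file were taken to have 0 reads there, which was not tested and allows up to 3 reads, or 0.519 CPM in the wild type. pmk-1 itself was not analysed here, so the deletion was not checked. All 5198 genes at the level of 50 reads had a median log2 ratio of -0.33. It was -0.24 with TMM factors, -0.28 with median-of-ratios factors and -1.39 when the libraries were scaled on markers of body tissues, which lowers every log2 ratio by 1.06. In whole worms, fewer cells of a type and less RNA per cell cannot be told apart.

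The ttr- genes ranged widely in level. Levels are compared per coding length, as the deposited RPKM. ttr-16 (Y5F2A.1) was the highest member in both libraries, at 679 wild-type and 1880 mutant RPKM, which placed it at rank 209 and rank 102 among all genes. ttr-15 (T07C4.5) followed at 611 and 677 RPKM. ttr-2 (K03H1.4) was the third, at 411 and 543 RPKM. These 3 genes held 51% of the wild-type ttr- reads and 46.7% of the mutant ones, so about as many reads came from them as from the other members together. Below them ttr-6 stood at 162 and 316 RPKM, ttr-51 at 156 and 351, ttr-47 at 156 and 391, and ttr-41 at 149 and 416. In all, 8 members exceeded 100 RPKM in the wild type and 14 did in the mutant, while 16 and 14 were under 10 RPKM. The median member stood at 17.1 RPKM in the wild type, where the median of all genes was 12.2, and at 36.9 in the mutant, where it was 18.5. The lowest members listed were ttr-44 in the wild type, at 1.1 RPKM, and ttr-23 in the mutant, at 0.449 RPKM from 1 read. Across the 41 genes the 2 libraries had a rank correlation of 0.97 in RPKM, against 0.94 over all genes. Each point is 1 gene in the same pair of libraries, so this is a description. The first 3 places were unchanged, and 7 of the 41 members in all held the same rank in both libraries. The 7 include ttr-7, whose wild-type rank is a tie among the members with no reads there. The members were short, with a median coding length of 429 bases against 927 for all genes, and 36 of them lay between 390 and 540 bases.

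**Figure D1:**
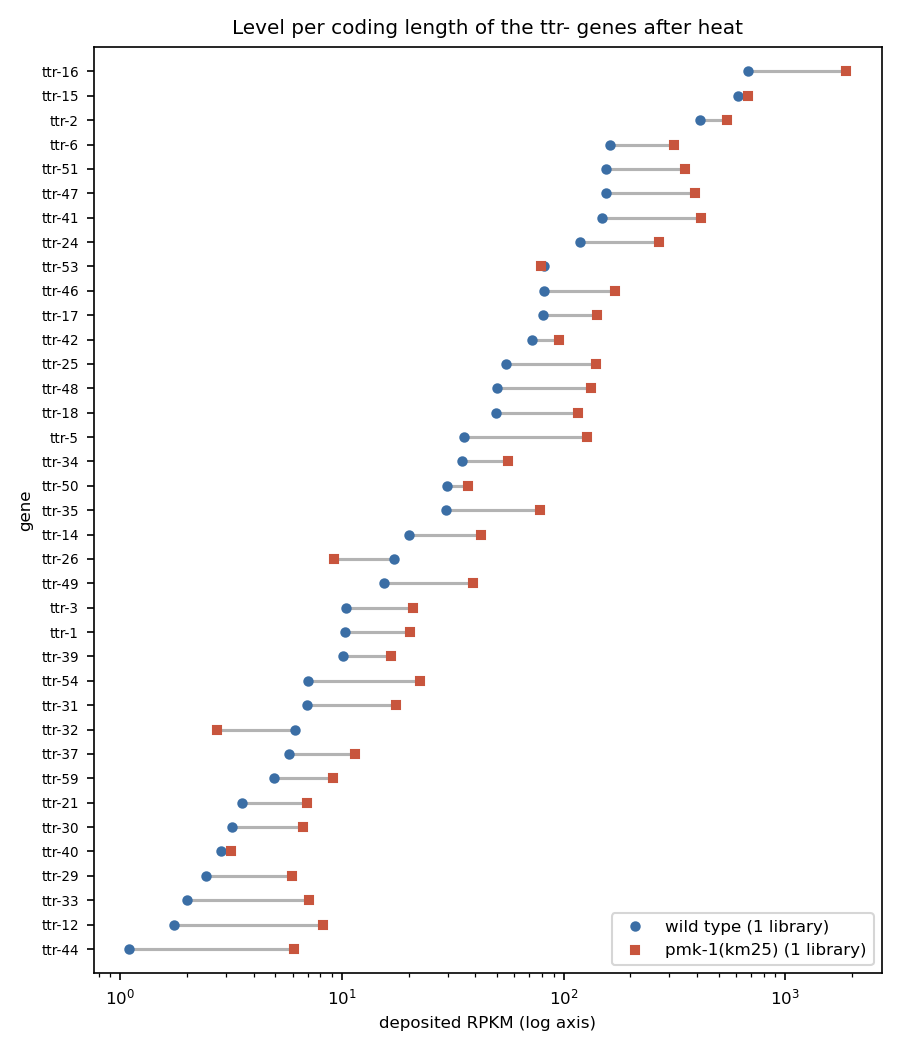
Deposited RPKM (log axis) of the 37 ttr- genes listed in both libraries, ordered by the wild-type level, with circles for the wild type, squares for the pmk-1(km25) mutant and 1 library each. ttr-16, ttr-15 and ttr-2 stand highest in both, and ttr-26, ttr-32 and ttr-53 are the 3 with the square to the left of the circle. The 4 genes with no reads in the wild type are not drawn.

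Most ttr- genes had a higher CPM in the mutant library. Of the 41, 38 were higher and 3 lower, where 50.2% of all genes were higher and 49.8% lower. Among the 38 are 4 members listed in the mutant alone, whose direction was fixed by the listing rule. The interval lay above 1 for 29 of the 41, with ttr-7 of the mutant-only members among them, against 26.3% of all genes. It lay below 1 for ttr-26 alone, against 33.0% of all genes, and it held 1 for the other 11. Summed over the family, 7877 wild-type reads stood against 14087 mutant reads. This is 0.136% of the library (Wilson 95% interval 0.133 to 0.139) against 0.269% (0.265 to 0.274), a pooled ratio of 1.98 (1.92 to 2.03), which turned to 0.95 with the scaling on body tissue markers. The median log2 ratio of the 41 members was 1.17, beside 0.01 for all genes listed. Over the genes listed in both libraries the median was 1.06 for 37 members, beside -0.05 for all genes. With the scaling on body tissue markers the median of the 41 was 0.11. On that scaling 23 members had a log2 ratio above 0 and 18 below.

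At the level of 50 reads there were 22 members, and 13 of them were called higher, where 17.6% of the 5198 genes tested were. None was called lower, where 1.75% were. The interval lay above 1 for 20 of the 22, against 30.2% of the genes tested, and below 1 for none, against 53.6%. Of these 22, 20 had at least 50 reads in both libraries, and 12 of those 20 were among the 13 called. ttr-1 (28 against 50 reads) and ttr-49 (47 against 107) passed through the mutant library alone. The median log2 ratio of the 22 was 1.12, which is 1.45 above that of all genes at the level, and the members lay closer together. Their interquartile range was 0.62 on the log2 scale, and that of all genes at the level was 1.19. None reached 8-fold, where 4.75% of the genes tested did.

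ttr-5 (C40H1.5) had the largest ratio at this level. Its 86 wild-type reads stood against 280 in the mutant, 3.6-fold higher (2.82 to 4.64). It was the 1 member past 3-fold, where 8.56% of the genes tested were. ttr-41 (F10G7.11) had 365 reads against 920, 2.79-fold higher (2.47 to 3.16). ttr-16 had 1568 against 3924, 2.77-fold higher (2.61 to 2.94), so the most abundant member was also among those with the largest ratios. ttr-48 (ZC64.2) had 143 against 345, 2.67-fold higher (2.19 to 3.27). ttr-35 (F22A3.2) had 75 against 180, 2.65-fold higher (2.02 to 3.52). ttr-25 (Y51A2D.10) had 135 against 311, 2.55-fold higher (2.08 to 3.14). The intervals of these 3 overlapped each other and that of ttr-16. ttr-49 (E02C12.13) was 2.52-fold higher (1.77 to 3.63). ttr-47 (H14N18.3) had 422 against 957, 2.51-fold higher (2.23 to 2.82). ttr-18 (B0334.1) had 120 against 254, 2.34-fold higher (1.88 to 2.93). The 4 remaining called members lay just past the threshold. ttr-24 (Y51A2D.9) had 294 against 602 reads, 2.26-fold higher (1.97 to 2.61). ttr-51 (JC8.8) had 377 against 766, 2.25-fold higher (1.98 to 2.55). ttr-14 (T05A10.3), the member with the longest coding sequence at 1221 bases, had 142 against 270, 2.1-fold higher (1.71 to 2.6), and ttr-46 (T07C12.7) had 254 against 479, 2.09-fold higher (1.79 to 2.44). With the scaling on body tissue markers none of the 13 was called.

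**Figure D2:**
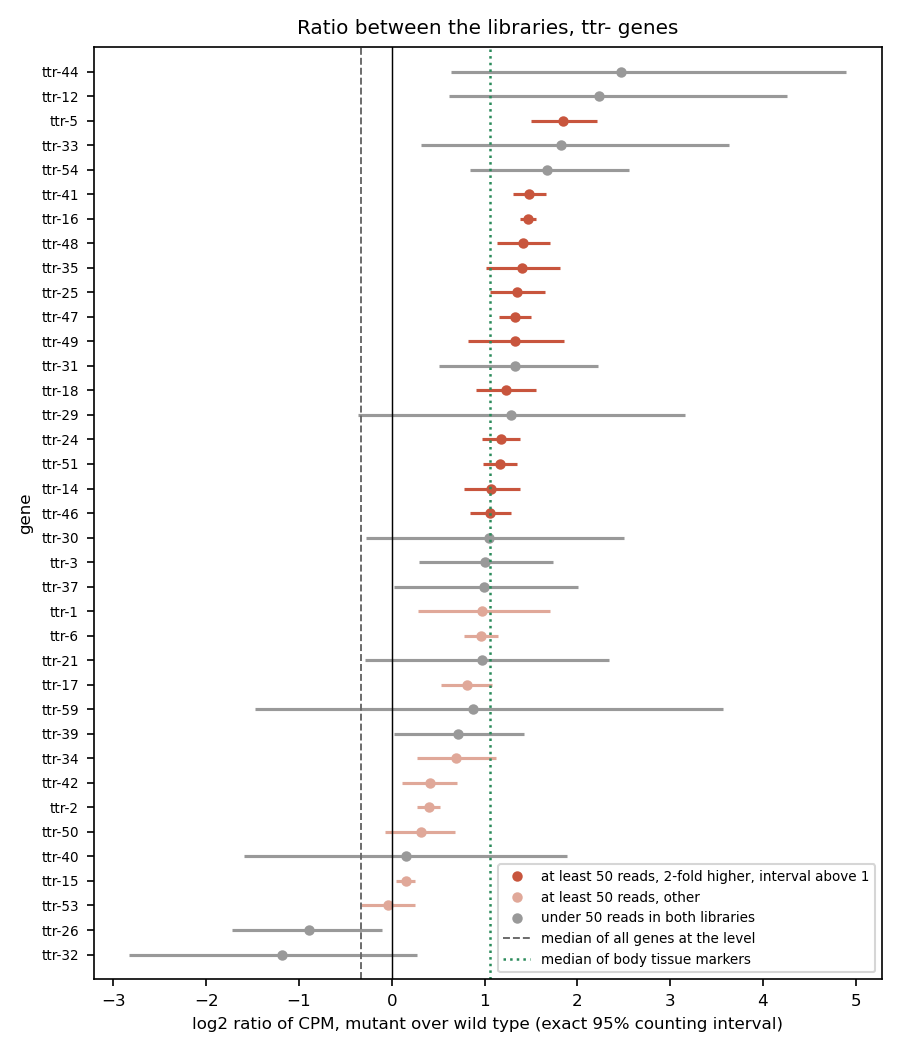
Log2 ratio of CPM, mutant over wild type, for the 37 ttr- genes listed in both libraries (x axis, no prior added), with exact 95% counting intervals as lines, the 13 called genes in dark red, the other genes at the level in light red and genes under 50 reads in both libraries in grey. The dashed line is the median of all genes at the level (-0.33) and the dotted line that of the body tissue markers (1.06), and 18 of the 41 members fall below 0 when the libraries are scaled on those markers.

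Among the 9 members at the level that were not called, 7 still had an interval above 1. ttr-1 (K03H1.6) had a ratio of 1.97 (1.22 to 3.26) and ttr-6 (T28B4.3), with 399 against 703 reads, a ratio of 1.95 (1.72 to 2.21). ttr-17 (Y5F2A.2) had 184 against 292 reads, a ratio of 1.76 (1.45 to 2.12), and ttr-34 (F09A5.9) 80 against 117, a ratio of 1.62 (1.21 to 2.18). These 4 genes lay between 1.5 and 2. The others differed little between the libraries. ttr-42 (H01M10.3) had 174 against 209 reads, a ratio of 1.33 (1.08 to 1.63), and ttr-2 had 1064 against 1269, a ratio of 1.32 (1.21 to 1.43). ttr-15 had 1388 against 1391, a ratio of 1.11 (1.03 to 1.19). ttr-50 (F58B3.9) had 111 against 124, with a ratio of 1.24 whose interval (0.949 to 1.61) held 1, and ttr-53 (T14G10.3) 211 against 185, with a ratio of 0.97 (0.792 to 1.19). ttr-53 was thus the 1 member at the level with a lower CPM in the mutant, by less than its counting error. Relative to the median of all genes at the level, its log2 ratio was 0.29 and that of ttr-15 was 0.48.

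A gene's share of all ttr- reads does not depend on how the libraries were scaled. By this measure the family was made up differently in the 2 libraries. Changes of share are given as odds ratios, a gene's reads over those of all other members, mutant over wild type. They are not quotients of the 2 shares. ttr-16 held 19.9% of the wild-type ttr- reads and 27.9% of the mutant ones, an odds ratio of 1.55 (1.45 to 1.66). ttr-15 went the other way, from 17.6% to 9.87%, an odds ratio of 0.512 (0.472 to 0.555). ttr-2 held 13.5% and 9.01%, an odds ratio of 0.634 (0.581 to 0.692). The 3 most abundant genes therefore moved in opposite directions within the family. Of the 22 members at the level, 8 had a larger share in the mutant with an interval that excluded 1. They were ttr-16, ttr-5 (1.84, 1.44 to 2.37), ttr-41 (1.44, 1.27 to 1.63), ttr-48 (1.36, 1.11 to 1.67), ttr-35 (1.35, 1.02 to 1.79), ttr-25, ttr-47 (each 1.29) and ttr-51 (1.14). A smaller share was found for 5 genes, ttr-53 (0.483, 0.394 to 0.593), ttr-15, ttr-50 (0.621, 0.476 to 0.811), ttr-2 and ttr-42 (0.667, 0.542 to 0.822). For the other 9 the interval held 1. Because single genes weigh on the sum, the pooled ratio was 1.78 (1.73 to 1.84) for the members other than ttr-16, 2.16 (2.1 to 2.23) for those other than ttr-15, and 2.15 (2.07 to 2.24) for those other than all 3 abundant genes. Ratio and level were not ordered alike, with a rank correlation of 0.04 between log2 ratio and RPKM over the 37 members listed in both libraries.

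**Figure D3:**
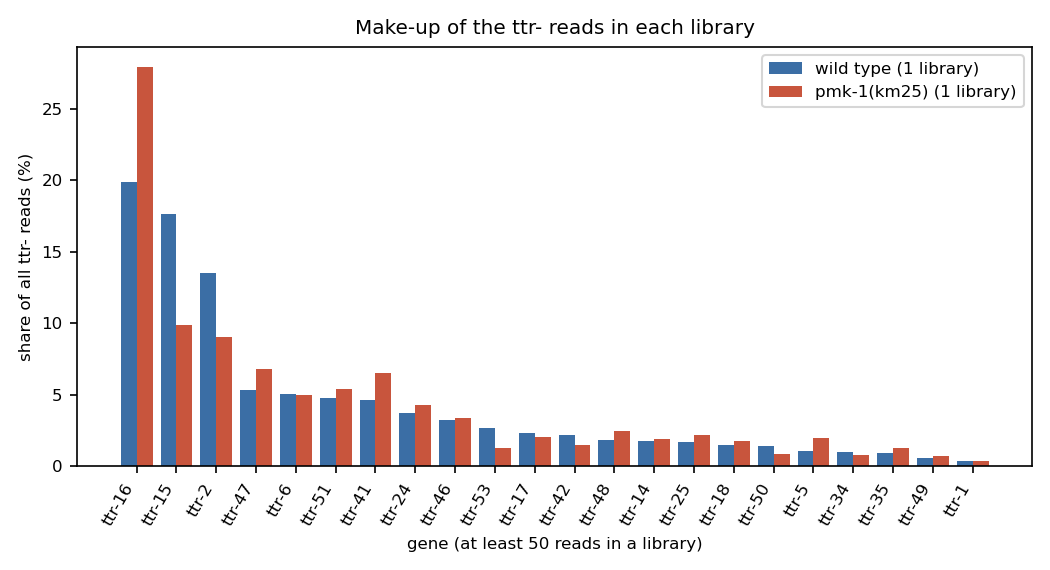
Share of all ttr- reads (%) held by each of the 22 members that reached 50 reads in a library, as blue bars for the wild type and red bars for the mutant, 1 library each. The ttr-16 bar goes from 19.9% to 27.9%, while those of ttr-15 and ttr-2 go from 17.6% to 9.87% and from 13.5% to 9.01%.

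The other 19 members had fewer than 50 reads in both libraries, with 210 wild-type and 352 mutant reads in all, a pooled ratio of 1.85 (1.56 to 2.21). The interval lay above 1 for 9 of them and below 1 for 1. ttr-33 (C37C3.13), the gene of the protein that protects dopamine neurons, had 5 reads against 16, a ratio of 3.54 with a wide interval (1.24 to 12.4). ttr-54 (T14G10.4) had 17 against 49 (3.19, 1.8 to 5.9) and ttr-31 (F58A3.5) 18 against 41 (2.52, 1.42 to 4.66). ttr-3 (K03H1.3) had 27 against 49 (2.01, 1.23 to 3.34). ttr-12 (F46B3.4) had 4 against 17 and ttr-44 (C56A3.2) 3 against 15. The largest ratios in the family thus came from genes with very few reads, and the ttr-44 reads covered 15.7% and 13.4% of its coding length, a small part of the gene. ttr-37 (15 against 27 reads) and ttr-39 (31 against 46) had intervals that reached down to 1.02. ttr-26 (Y51A2D.11) was the exception in direction, with 43 reads against 21, 1.85-fold lower in the mutant (1.07 to 3.28), from reads that covered 91.7% and 76.1% of its coding length. ttr-32 (R13A5.3), with 15 against 6 reads, had a ratio of 0.442, with an interval (0.141 to 1.21) that held 1. ttr-21, ttr-29, ttr-30, ttr-40 and ttr-59 had 3 to 9 wild-type and 5 to 16 mutant reads, and their differences were not detectable at this depth. ttr-7 (5 reads), ttr-27 (4), ttr-23 and ttr-57 (1 each) were listed in the mutant alone. For ttr-7 the interval's lower end was 1.01, and for the other 3 it was below 1. R09H10.3, which encodes a transthyretin-related protein of the 5-hydroxyisourate hydrolase type outside the ttr- names, had 9 against 18 reads, a ratio of 2.21 (0.944 to 5.59).

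Many ttr- genes lie side by side. In the gene order of the WBcel235 annotation, 28 of the 58 ttr- genes had another ttr- gene as the next protein-coding gene, in 12 runs, and 20 of the 41 members were in such runs. Some neighbours differed widely in level and others little. ttr-2 stood 39.4-fold above its neighbour ttr-3 and 40-fold above ttr-1 in wild-type RPKM, ttr-53 stood 11.6-fold above ttr-54, and ttr-16 stood 8.46-fold above ttr-17. The levels of ttr-24 and ttr-25 were 2.18-fold apart, those of ttr-30 and ttr-59 1.54-fold, and those of ttr-3 and ttr-1 1.02-fold. The levels of ttr-30 and ttr-59 rest on 8 and 3 wild-type reads, with a coding length of 105 bases for ttr-59, so their difference is uncertain. Of 10 pairs within a run with reads in both libraries, the ratios of 4 pairs differed beyond counting error, a comparison that does not depend on scaling. Pairs from the same run share genes, so the 10 are not independent. On chromosome V, ttr-25 had a ratio 4.72 times that of the adjacent ttr-26 (2.61 to 8.68), and ttr-24, from the same run, 4.19 times (2.38 to 7.57), while ttr-24 and ttr-25 did not differ from each other beyond counting error (1.13, 0.874 to 1.45). On chromosome IV, the ratio of ttr-54 was 3.29 times that of ttr-53 (1.78 to 6.3), and that of ttr-16 was 1.58 times that of ttr-17 (1.29 to 1.92). In the ttr-3, ttr-2 and ttr-1 run on chromosome III every interval held 1. Reads of near-identical copies that map to more than 1 place were not counted, and how alike these neighbours are in sequence was not examined here.

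**Figure D4:**
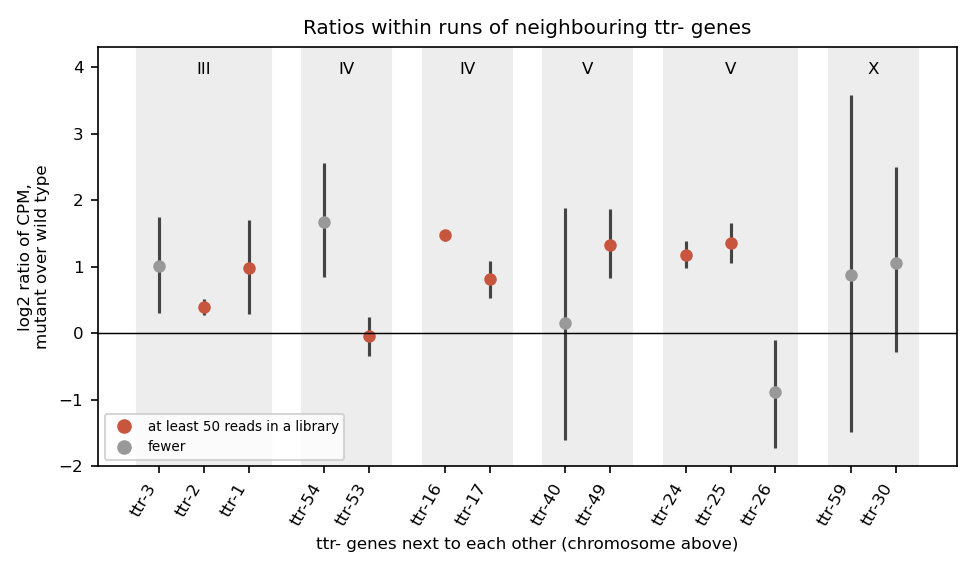
Log2 ratio of CPM, mutant over wild type, with exact 95% counting intervals, for members that lie next to each other, 1 grey band per run with its chromosome above, red for genes that reached 50 reads in a library and grey for the rest. ttr-26 lies below 0 beside ttr-24 and ttr-25, and ttr-53 near 0 beside ttr-54. Scaling on body tissue markers lowers every point by 1.06.

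The nearest other protein-coding genes on either side of the members were read in the same way. Of 63 such genes, 27 were listed, with a median log2 ratio of 0.15, and of the 10 at the level 1 was called higher, with a median of -0.45. All genes at the level had 17.6% called higher and a median of -0.33, so these neighbours lay near the background. By chromosome, chromosome V held the most annotated ttr- genes, 22, of which 15 were listed, and all 5 at the level were called higher, where 22.5% of the genes at the level on that chromosome were. On chromosome X 3 of 6 were called, against 31.8%, and the 10 listed members had a median log2 ratio of 0.99 where all listed genes of that chromosome had 0.69. Chromosome IV had 2 of 5 called, against 19.3%, chromosome II 2 of 2, against 14.7%, and chromosome III 1 of 4, against 10.7%. The 3 ttr- genes of chromosome I were not analysed here. Coding exons of ttr-7, ttr-16 and ttr-47 overlap an exon of a gene on the opposite strand, and the labels state no strand-specific library. For ttr-16 that gene is lin-3, which encodes an epidermal growth factor and had 12 against 15 reads.

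Other gene families of secreted or small binding proteins are set beside the ttr- genes, of which 59.1% at the level were called higher. Of 43 cuticle collagens (col-) at the level, 19 (44.2%) were called higher and 2 lower. Of 34 C-type lectins (clec-), 18 (52.9%) were called higher and 0 lower, and of 10 intracellular and secreted lipid-binding proteins (lbp- and far-), 6 and 0. Median log2 ratios at the level were 0.88 for the collagens, 1.13 for the lectins and 1.07 for the lipid-binding proteins, beside 1.12 for the ttr- genes, and with the scaling on body tissue markers they were -0.18, 0.07, 0.01 and 0.06. Of those at the level, 11 lectins, 2 collagens and 2 ttr- genes reached it through their mutant reads alone, and 7 collagens and 1 lectin through their wild-type reads alone. Over all listed members of each family, the median was 1.17 for the ttr- genes, beside 0.5 for the collagens, 0.88 for the lectins and 1.04 for the lipid-binding proteins. The ttr- median was 1.06 over the 37 members listed in both libraries, and the other families were not split this way here. The pooled ratio of 1.98 for the ttr- genes stood beside 2.21, 1.08 and 2.1.

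Markers of body tissues lay at about the same ratio as the ttr- genes. The 46 listed markers of intestine, body wall muscle, pharynx, neurons and hypodermis, of 54 chosen, had a median log2 ratio of 1.06. The 31 at the level had a median of 1.19, beside 1.12 for the ttr- genes at the level, and 21 of the 31 were called higher. By tissue, the medians at the level were 0.1 for hypodermis and 0.78 for intestine. They were 1.2 for neurons, 1.23 for body wall muscle and 1.5 for pharynx. The summed level of all 46 was 9300 CPM for the wild type against 19600 for the mutant. By tissue, 8 of 9 muscle genes at the level, 5 of 5 pharynx genes, 5 of 8 neuron genes, 2 of 7 intestine genes and 1 of 2 hypodermis genes were called higher, with summed levels of 3080 and 7140, 426 and 1240, 212 and 348, 2900 and 5590, and 2690 and 5280 CPM. The hypodermis sum was almost all from the adult collagen gene col-19 (13826 against 26779 reads), which is also among the collagens above. The other hypodermis gene at the level, lin-26, went the other way, with 1639 against 798 reads, a ratio of 0.538 (0.494 to 0.586). Of the 31 markers at the level, 26 had an interval above 1 and 2 below, lin-26 and the muscle gene dim-1 (59 against 31 reads). unc-54, myo-3, unc-22, ges-1, ifc-2, ceh-22, rab-3 and bli-1 were not analysed here. Of the 31, 5 reached the level through their mutant reads alone, 3 of them neuron and 2 pharynx genes. Glial markers were too low to read, with 2 of 5 listed and 3 against 4 reads in all. Over all 7 listed hypodermis genes the median log2 ratio was -0.89. At the level, the medians of the germline lists lay outside those of the tissue lists. All 13 listed oocyte and eggshell genes, of 17 chosen, had an interval below 1, as did 53.6% of all genes at the level, with a median log2 ratio of -0.86 and summed levels of 11500 and 6410 CPM. The 12 listed sperm genes, of 17 chosen, had a median of 3.66 and summed levels of 29.9 and 321 CPM. Of the 9 at the level, all were called higher, but 8 reached the level through their mutant reads alone, so that count is fixed in part by the filter. Of 8 moulting genes 5 were listed, with 113 against 70 reads in all, and the 1 at the level, mlt-10, reached it through its wild-type reads alone (57 against 14). The part of these tissue differences in the ttr- ratios was not tested.

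Genes for the clearance of dying cells, the process in which TTR-52 works, lay nearer to the median of all genes. Of 20 genes chosen, 13 were listed and 11 reached the level, with a median log2 ratio of -0.24, beside -0.33 for all genes, and -1.3 with the scaling on body tissue markers. The 1 called higher was nrf-5, a secreted lipid-binding protein gene that helps to display phosphatidylserine, with 374 against 746 reads, 2.21-fold higher (1.95 to 2.5). None was called lower. The interval lay below 1 for 8 of the 13 listed genes, all 8 among the 11 at the level, where 53.6% of all genes had such an interval. The engulfment signalling genes ced-12, ced-5 and ced-2 had 822 against 447 reads, 1922 against 1072 and 671 against 397, which is 1.66-fold, 1.62-fold and 1.53-fold lower. The transporter gene ced-7 (2534 against 1551 reads) was 1.48-fold lower (1.39 to 1.57) and the phosphatidylserine receptor gene psr-1 (263 against 162) 1.47-fold lower (1.2 to 1.8). The receptor gene ced-1 had 54 against 56 reads, a ratio of 1.15 whose interval (0.775 to 1.7) held 1. The adaptor gene ced-6 (646 against 495 reads), the integrin gene pat-3 (1403 against 1091), wah-1 (1138 against 934) and the Rac gene ced-10 (83 against 68) had log2 ratios from -0.24 to -0.14. ced-8 and dyn-1 stayed under 50 reads in both libraries. Some of these counts stand for part of a gene. For ced-1, 54 wild-type reads gave an RPKM of 62.2, where 646 gave 75.5 for ced-6, so a short length was counted for ced-1. Reads covered 32.8% of the psr-1 coding length in each library. Coverage was 47.9% and 48.4% for ced-10, and 4.25% and 4.61% for dyn-1.

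**Figure D5:**
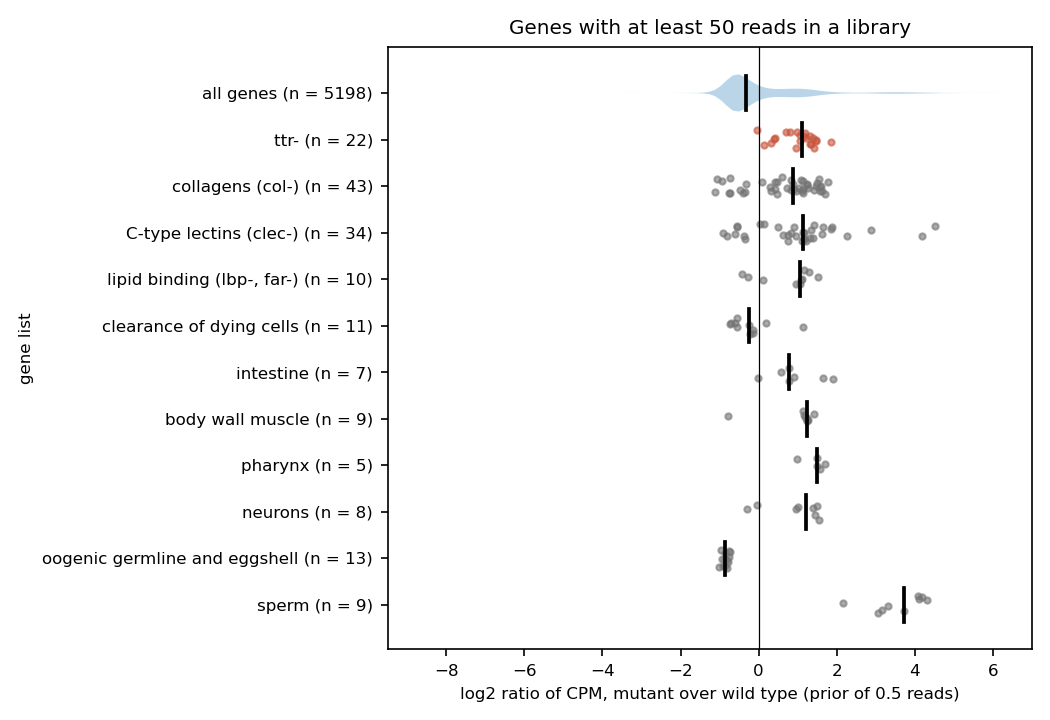
Log2 ratio of CPM, mutant over wild type (prior of 0.5 reads), for genes that reached 50 reads in a library, with all genes as a density, each list as points (1 gene each, scattered vertically for view) and black bars for medians. The ttr- median of 1.12 lies among those of the collagens, lectins, lipid-binding proteins and the intestine, muscle, pharynx and neuron markers. These run from 0.78 for intestine to 1.5 for pharynx. The hypodermis markers, 2 at the level with a median of 0.1, are not drawn. With the scaling on body tissue markers every value is lower by 1.06, which turns the collagen and intestine medians to -0.18 and -0.28.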

How the data were processed

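Per the file headers, the authors deposited unique read counts for each coding sequence ID, beside RPKM and the percent of the coding length covered. RPKM recomputed from count, length and library total matched the deposited values within a relative error of 2.8e-08. All listed lengths were multiples of 3, so untranslated regions were not counted. Of the aligner, genome build and annotation nothing is stated (not given in the sources used here). Of 9430 IDs, 9383 matched sequence names of the Ensembl 115 annotation (WBcel235), used for symbols, chromosome and gene order. Each of the 41 members had 1 ID. Per the labels' protocols, mRNA was selected on oligo(dT) beads and copied with random hexamers. Ratios of CPM carry Clopper-Pearson intervals (scipy 1.17.1), and log2 ratios a prior of 0.5 reads. Shares of family reads and pairs of neighbours were compared by odds ratios with conditional intervals. TMM factors came from edgeR 4.0.16 and median-of-ratios factors from DESeq2 1.42.0, for scaling only. With 1 library per genotype, intervals cover counting error only. Reads carry no molecular identifiers, so duplicates could not be removed by them, and the intervals treat every read as independent. The calls were tested on simulated data. The simulated counts held counting error alone, so variation between replicate libraries was not covered. Other settings, given in the closing section, varied the scaling, the level, the fold threshold, the prior and the ID taken per gene. Members, lists and the scaling on 46 tissue markers were chosen with earlier results of these data known. By the naming rule every member may be named, with the 6 clearance genes of largest ratio, other listed genes of that list by their reads, and at most 2 genes per comparison list. The ratio and RPKM of ced-1 and the coverage of clearance genes were chosen after their values were seen. So were col-19, lin-26, dim-1, lin-3 and the markers named as not analysed. No sequences are printed.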

Additional observations from a re-analysis of the deposited data

How the results depend on the processing

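Of the settings tried, the scaling on body tissue markers changed the ttr- results most. On it the pooled ratio was 0.95, the median log2 ratio 0.06 at the level and 0.11 over all members, and 0 members were called higher and 1, ttr-53, lower, while over all genes 329 were called higher and 3420 lower. With that scaling 8.78% of all calls were on the higher side, against 90.9% with library totals. At a ratio of 1.5 the share was 47.5%, from 1299 higher and 1436 lower calls. The pooled ratio was 2.11 with TMM, 2.05 with median-of-ratios factors and 2.12 with totals that leave out the 10 largest IDs, and 1.78, 2.16 and 2.15 for the members other than ttr-16, ttr-15 or all 3 abundant genes, sums that were added after seeing the data. Members called higher were 20 with no level filter and 1 at a ratio of 3, where all genes gave 1601 higher and 164 lower, and 445 higher and 15 lower. TMM gave 59 lower calls and the reduced totals 57. The other settings gave 13 to 17 members called higher, and medians between 1.04 and 1.26. No called member turned below 0 in log2 ratio under any setting, though ttr-46 came to 0 with the scaling on body tissue markers. Depth limits the 19 members under 50 reads, and without a second library per genotype no replicate could be left out. No paired analysis was possible because each genotype has 1 library.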
